A study of Mus musculus with 96 samples.

Results

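The liver expression of the 6 Cyp4a fatty acid hydroxylase genes, Cyp4a10, Cyp4a12a, Cyp4a12b, Cyp4a14, Cyp4a31 and Cyp4a32, was followed in mice fed a high-fat diet (HFD) or chow diet (CD). The genes were taken by symbol from the series' expression table, as 6 of its 21990 genes, of which 20155 carried values. All mice were male C57BL/6N, bought at 4 weeks of age and fed without restriction either Research Diets D12492 with 60% fat (HFD) or LabDiet 5001 with 13.5% fat (CD). The 2 diets came from different makers, so the groups differed in more of their feed than its fat. Liver and pancreatic islets of the same 48 mice were sequenced after 4, 8, 12, 16, 20 and 24 weeks of feeding, with 4 mice for each diet and week, and 48 of the 96 libraries were from liver. A mouse was taken at 1 time point only, so the 12 liver groups hold different animals. Values are FPKM (fragments per kilobase of transcript, scaled to the fragments of a library), a measure per transcript length that allows levels of different genes to be set side by side.

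Cytochromes P450 of the CYP4A family add a hydroxyl group to the far, omega end of fatty acids such as lauric and arachidonic acid, in the endoplasmic reticulum. The product is then oxidized by alcohol and aldehyde dehydrogenases to a dicarboxylic acid and shortened in peroxisomes, a side route of fatty acid breakdown. Cyp4a10 and Cyp4a14 are textbook target genes of PPARα, the nuclear receptor that senses fatty acids in hepatocytes and is active in fasting. Cyp4a12a encodes the main renal and hepatic hydroxylase that makes 20-HETE from arachidonic acid, and in mice it is known as a male-biased, androgen-dependent gene. Cyp4a12b is its close neighbour, while less is known of the enzymes encoded by Cyp4a31 and Cyp4a32.

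The 6 genes lie side by side on chromosome 4, and their coding sequences decide how well reads of one can be told from reads of another. In the deposited gene models (GRCm38), Cyp4a12a spans chr4:115299046-115332815, Cyp4a12b chr4:115411624-115439034 and Cyp4a31 chr4:115563626-115579015, all on the plus strand. Cyp4a14 spans chr4:115486200-115496159 on the minus strand. The deposited models of Cyp4a10 (chr4:115508628-115579015) and Cyp4a32 (chr4:115563626-115622507) each run across the whole of Cyp4a31, so the 3 plus-strand models share 15390 bases. The model of Cyp4a32 holds 15 transcripts, of which 10 were assembled by the authors, and that of Cyp4a10 holds 3, of which 2 were. FPKM of Cyp4a10, Cyp4a31 and Cyp4a32 are therefore uncertain in how their reads were split among these 3 genes.

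Coding sequences of the principal GENCODE M21 transcripts (GRCm38) were compared to show this closeness. They were 1521 to 1527 bases long. The stretch below codes for the heme-binding signature of cytochromes P450, the site that holds the iron of the active centre, with 30 bases before and after it. It spans the end of exon 11 and the start of exon 12 in each gene. For Cyp4a10 these parts are chr4:115529472-115529518 and chr4:115532531-115532573 (plus strand), and for Cyp4a14 chr4:115489789-115489835 and chr4:115487269-115487311 (minus strand). For Cyp4a31 they start at 115574920 and 115577936, for Cyp4a32 at 115614850 and 115621434, for Cyp4a12a at 115328956 and 115331834, and for Cyp4a12b at 115435210 and 115438057. Capitals mark bases that differ from Cyp4a10.
Cyp4a10: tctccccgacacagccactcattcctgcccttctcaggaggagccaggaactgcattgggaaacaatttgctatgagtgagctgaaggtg
Cyp4a31: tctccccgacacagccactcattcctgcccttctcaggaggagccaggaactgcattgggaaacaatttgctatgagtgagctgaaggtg
Cyp4a32: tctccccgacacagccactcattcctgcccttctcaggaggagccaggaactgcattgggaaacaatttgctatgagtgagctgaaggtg
Cyp4a12a: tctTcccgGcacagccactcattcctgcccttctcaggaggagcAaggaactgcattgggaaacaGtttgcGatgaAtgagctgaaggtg
Cyp4a12b: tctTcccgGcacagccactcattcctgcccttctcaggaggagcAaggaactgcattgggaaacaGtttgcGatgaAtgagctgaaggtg
Cyp4a14: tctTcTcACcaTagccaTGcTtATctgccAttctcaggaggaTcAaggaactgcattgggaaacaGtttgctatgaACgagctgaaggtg
In these 90 bases Cyp4a10, Cyp4a31 and Cyp4a32 are the same, Cyp4a12a and Cyp4a12b are the same, and Cyp4a14 differs from Cyp4a10 at 16 bases.

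The 60 coding bases within 1 exon that hold the most positions at which Cyp4a10, Cyp4a31 and Cyp4a32 are not all alike are given next. They lie in exon 2 on the plus strand of GRCm38, at chr4:115519640-115519699 for Cyp4a10, chr4:115565020-115565079 for Cyp4a31 and chr4:115602270-115602329 for Cyp4a32. Capitals mark these 9 positions, of 77 in the whole coding sequence. At most of the 9 Cyp4a10 and Cyp4a31 carry the same base, so the window mainly sets Cyp4a32 apart from the other members of this group.
Cyp4a10: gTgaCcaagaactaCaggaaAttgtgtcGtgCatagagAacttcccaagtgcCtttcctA
Cyp4a31: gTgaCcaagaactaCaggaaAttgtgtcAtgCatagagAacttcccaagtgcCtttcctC
Cyp4a32: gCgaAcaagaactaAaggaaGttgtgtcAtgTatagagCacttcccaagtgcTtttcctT
The same choice for Cyp4a12a and Cyp4a12b fell in exon 6 on the plus strand, at chr4:115326628-115326687 and chr4:115432881-115432940, and holds 4 of their 23 coding differences.
Cyp4a12a: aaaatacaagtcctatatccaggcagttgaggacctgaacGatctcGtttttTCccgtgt
Cyp4a12b: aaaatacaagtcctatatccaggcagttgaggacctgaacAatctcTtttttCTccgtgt
Cyp4a12a and Cyp4a12b were 98.5% identical over 1524 coding bases, Cyp4a10 and Cyp4a32 97.2%, Cyp4a10 and Cyp4a31 96.6%, and Cyp4a31 and Cyp4a32 96.0%. Identity between other pairs was 75.2% to 80.2%. Of all 100-base windows of the coding sequence, 58.7% in both Cyp4a12a and Cyp4a12b, 79.9% in Cyp4a32, 82.1% in Cyp4a10 and 86.1% in Cyp4a31 occurred in no other member. In Cyp4a14 this share was 100%, so its values do not share coding windows with the other 5 genes. For this reason the near-identical genes were tested singly and also as sums, Cyp4a10 with Cyp4a31 and Cyp4a32, and Cyp4a12a with Cyp4a12b.

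The libraries carried the labelled tissue. Summed FPKM of 8 hepatocyte markers was 52353 to 94050 per liver library, against 32.1 to 162 for 6 Kupffer cell markers, 27.5 to 121 for 6 stellate cell markers and 9.04 to 131 for 8 pancreatic acinar markers. The blood markers, 4 globin and erythroid genes, ranged from 57.2 to 3979 over the liver libraries. As these are bulk samples, fewer cells of a type and less RNA per cell cannot be told apart. All 6 genes were expressed in liver and 5 were close to nothing in islets, where the highest value in any library was 2.34 FPKM for Cyp4a14, in an HFD mouse. Cyp4a32 was read at 0.48 to 2.29 FPKM in the 48 islet libraries.

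Cyp4a14 and Cyp4a10 dominated the liver levels. Over the 24 CD livers, Cyp4a14 ranged from 2.45 to 2029 FPKM with a median of 304.2, and Cyp4a10 from 23.9 to 1407 with a median of 322. Over the 24 HFD livers, Cyp4a14 ranged from 116 to 1179 (median 514) and Cyp4a10 from 88.9 to 769 (median 371). Both thus varied over a wider range on CD than on HFD. Cyp4a12a had a median of 72.5 FPKM on CD and 80.3 on HFD, Cyp4a12b of 37.6 and 18.3, Cyp4a32 of 25.0 and 29.8, and Cyp4a31 of 6.79 and 5.25. Cyp4a31 was the lowest member by median on both diets. Cyp4a14 made up a median of 35.6% of the summed FPKM of the 6 genes on CD (1.15% to 60.5%) and 49.4% on HFD (34.9% to 61.1%). On CD, Cyp4a12a could make up as much as 59.9% of the sum in 1 mouse, against at most 28.3% on HFD.

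**Figure D1:**
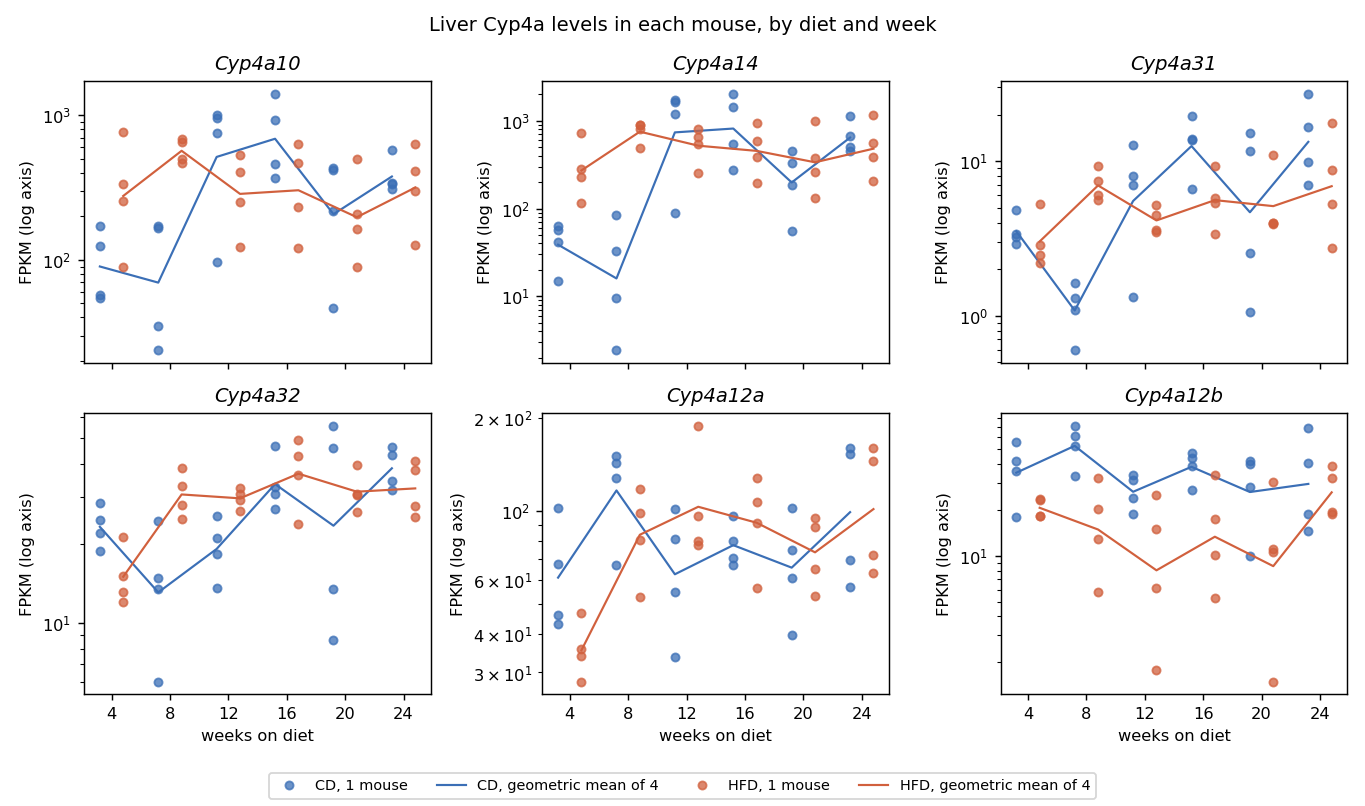
FPKM of each gene (log axis) against weeks on diet, 1 point a mouse and lines through the geometric mean of 4 mice, CD in blue and HFD in orange. Cyp4a10 and Cyp4a14 were low in CD mice at weeks 4 and 8 and high in most CD mice at weeks 12 and 16, while HFD mice changed less. Cyp4a12b lay lower on HFD in every week by its geometric mean.

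HFD and CD were compared within each week to ask how the diet changed these genes at each stage. Changes are log2 differences of FPKM + 1 between the means of 4 HFD and 4 CD mice, with the standard error (SE) and the Benjamini-Hochberg adjusted p of limma over all genes tested in that week, and a gene was called at an adjusted p under 0.05. All 6 members passed the filter of 1 FPKM in at least 4 of 8 libraries in each week. At week 8, 3 of 6 members rose on HFD and none fell, against 6.17% of all 10034 genes called higher and 1.33% called lower. The median log2 difference of the 6 genes was 1.54 at week 8, against 0.04 for all genes tested. At week 12, 1 of 6 rose and none fell, against 9.42% and 1.22% of 9955 genes. No member was called in the other 4 weeks. The limma calls over all genes were few at week 4 (0.0405% higher, 0.0101% lower) and week 24 (0.65% and 0.187%), and more at week 16 (6.74% and 0.682%) and week 20 (1.73% and 0.746%). At an unadjusted p under 0.05, 5 members differed at week 4 (2 higher, 3 lower), 2 at week 16 (both lower), and 0 at weeks 20 and 24. The share of all genes at that threshold was not computed, here or for the unadjusted counts given below, so these counts have no background beside them. limma was the only tool run, and its fit without trended and robust variances gave the same counts of members.

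Cyp4a14, the PPARα target with no near-identical copy among the 6, changed most. At week 8 the CD mice had 2.45, 9.50, 32.9 and 84.4 FPKM, and the HFD mice 490, 814, 893 and 894. The groups did not overlap, and the lowest HFD mouse, HFD217, lay far above the highest CD mouse. The log2 difference was 5.39 (SE 0.90, adjusted p = 0.0132), and it was 4.59 to 6.13 when 1 mouse at a time was left out, called in each case. At week 4 the CD mice had 14.8, 41.6, 57.3 and 63.5 FPKM and the HFD mice 116, 228, 282 and 725. These groups did not overlap either, with a log2 difference of 2.77 (SE 0.58), but the adjusted p of limma was 0.109.

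From week 12 the pattern of Cyp4a14 was another. The CD mice of week 12 had 87.7, 1182, 1655 and 1724 FPKM, against 254, 538, 659 and 812 on HFD. Mouse CD304 lay below all 4 HFD mice, and the other 3 CD mice lay above them. With all mice the log2 difference was -0.51 (SE 1.01, adjusted p = 0.766), and without CD304 it was -1.53 with an adjusted p of 0.0356 in limma. In the CD group of week 16, the values were 276, 550, 1438 and 2029 FPKM, against 195, 386, 591 and 954 on HFD, which overlapped (log2 difference -0.84, SE 0.75, adjusted p = 0.571). At week 20 the CD values were 54.9, 186, 332 and 454 and the HFD values 131, 262, 372 and 1005 (log2 difference 0.76, SE 0.82, adjusted p = 0.746). At week 24 they were 457, 497, 663 and 1138 on CD and 207.3, 388, 564 and 1179 on HFD (log2 difference -0.42, SE 0.50, adjusted p = 0.765). The ranges of the diets overlapped in both of these weeks.

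Cyp4a10, also a PPARα target, moved in the same weeks. At week 8 the CD mice had 23.9, 34.8, 167 and 170 FPKM and the HFD mice 467, 499, 654 and 683, with no overlap. The log2 difference was 3.001 (SE 0.65, adjusted p = 0.0340). This call was lost, with adjusted p of 0.058 to 0.0976 and log2 differences of 2.50 to 3.06, when any one of CD207, CD208, HFD211, HFD212 or HFD213 was left out. At week 4 the diets overlapped, with 54.2, 57.4, 124 and 170 FPKM on CD and 88.9, 255, 337 and 769 on HFD (log2 difference 1.61, SE 0.62, adjusted p = 0.328). At week 12 the CD mice had 96.5 (CD304), 759, 962 and 1001 FPKM and the HFD mice 124, 251, 406 and 532. The same mouse, CD304, was thus the low one for both Cyp4a10 and Cyp4a14. At weeks 16, 20 and 24 the ranges of the diets overlapped and the log2 differences of Cyp4a10 were -1.18, -0.07 and -0.25.

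Cyp4a31, at a far lower level, rose at week 8 from 0.60, 1.08, 1.29 and 1.62 FPKM on CD to 5.56, 6.06, 7.47 and 9.29 on HFD, without overlap. Its log2 difference of 1.92 (SE 0.18, adjusted p = 0.00188) remained called without any one mouse (1.78 to 2.02). At week 12 CD304 was again the low CD mouse, at 1.31 FPKM against 6.98 to 12.6 in the other 3, and the HFD mice had 3.50 to 5.19. The log2 difference was -0.43 (SE 0.51, adjusted p = 0.602) with CD304 and -0.95 (adjusted p = 0.0129) without it. At week 16 the log2 difference was -1.03 (SE 0.34, adjusted p = 0.118), and Cyp4a31 was called lower on HFD without CD405 (adjusted p = 0.0367) or without HFD411 (adjusted p = 0.0438).

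Cyp4a32 had 6.02, 13.5, 14.8 and 24.5 FPKM on CD at week 8 and 24.8, 27.9, 33.1 and 38.8 on HFD, ranges that came close without overlap. The log2 difference of 1.16 (SE 0.35) had an adjusted p of 0.0896, and 0.0357 without CD203. With all 12 groups in one limma fit it was called (adjusted p = 0.0331). At week 12 it had 13.6, 18.3, 21.1 and 25.5 FPKM on CD and 26.6, 29.2, 31.0 and 32.4 on HFD, again without overlap, and this difference of 0.61 was called (SE 0.16, adjusted p = 0.0439). The call at week 12 was lost without any one of 6 mice (CD306, CD308 and all 4 HFD mice), with adjusted p of 0.0517 to 0.115. It was also lost with libraries scaled by median ratios, where the log2 difference was 0.45 (adjusted p = 0.132). The summed FPKM of Cyp4a10, Cyp4a31 and Cyp4a32, which still depends on how reads were split because FPKM divides by each model's own length, rose at week 8 by a log2 difference of 2.80 (SE 0.59, adjusted p = 0.0316). That call was lost without CD207, HFD211, HFD212 or HFD213 (2.54 to 2.85, adjusted p = 0.0799 to 0.0923). In other weeks the sum differed by -1.09 to 1.35 with no call.

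Cyp4a12b went the other way. At week 8 it had 33.5, 52.5, 61.6 and 71.6 FPKM on CD and 5.76, 12.8, 20.3 and 32.7 on HFD, so the highest HFD mouse lay just under the lowest CD mouse. The log2 difference of -1.74 (SE 0.48) had an adjusted p of 0.0695, and of 0.0178 without HFD217. At week 4 the CD mice had 17.9, 36.2, 42.0 and 56.0 FPKM and the HFD mice 18.2, 18.3, 23.1 and 23.7, and only CD101 of the CD mice lay at the HFD level. The log2 difference was -0.74 (SE 0.29, adjusted p = 0.341), and without CD101 it was -1.05 with an adjusted p of 0.0424.

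The lowest Cyp4a12b values came from HFD mice of later weeks. At week 12 the CD mice had 18.8, 23.8, 31.5 and 34.1 FPKM and the HFD mice 1.77, 6.18, 15.1 and 25.3. In week 16 the values were 27.0, 39.0, 43.8 and 47.4 on CD and 5.28, 10.1, 17.5 and 34.0 on HFD, and at week 20 they were 9.95, 28.2, 40.3 and 42.0 on CD and 1.49, 10.6, 11.1 and 30.6 on HFD. At weeks 12 and 16 a single HFD mouse lay within the CD range, and at week 20 only the mouse at 1.49 FPKM (HFD511) lay outside it. The log2 differences of -1.52, -1.44 and -1.42 (SE 0.67, 0.50 and 0.80) had adjusted p of 0.180, 0.144 and 0.477, and the difference of week 16 was called without HFD411 (-1.86, adjusted p = 0.0157). At week 24 the diets overlapped widely, with 14.6, 18.8, 40.7 and 69.4 FPKM on CD and 18.9, 19.3, 32.6 and 39.0 on HFD (log2 difference -0.18, SE 0.47, adjusted p = 0.908).

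Cyp4a12a, 98.5% identical to Cyp4a12b in its coding bases, was not called in any week, and the difference between the 2 genes in their diet effects was not tested. At week 4 its log2 difference of -0.77 (SE 0.27) was close to that of Cyp4a12b, -0.74 (SE 0.29). Its range on the 2 diets overlapped in every week, for example 33.7 to 101.4 FPKM on CD and 77.7 to 189 on HFD at week 12, and 67.0 to 150 and 52.5 to 118.1 at week 8. The log2 differences by week were -0.77, -0.47, 0.72, 0.24, 0.16 and 0.03 from week 4 to week 24, with adjusted p of 0.262 to 0.985. The sum of Cyp4a12a and Cyp4a12b differed by -0.77 to 0.36 with no call in any week (adjusted p 0.213 to 0.990).

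**Figure D2:**
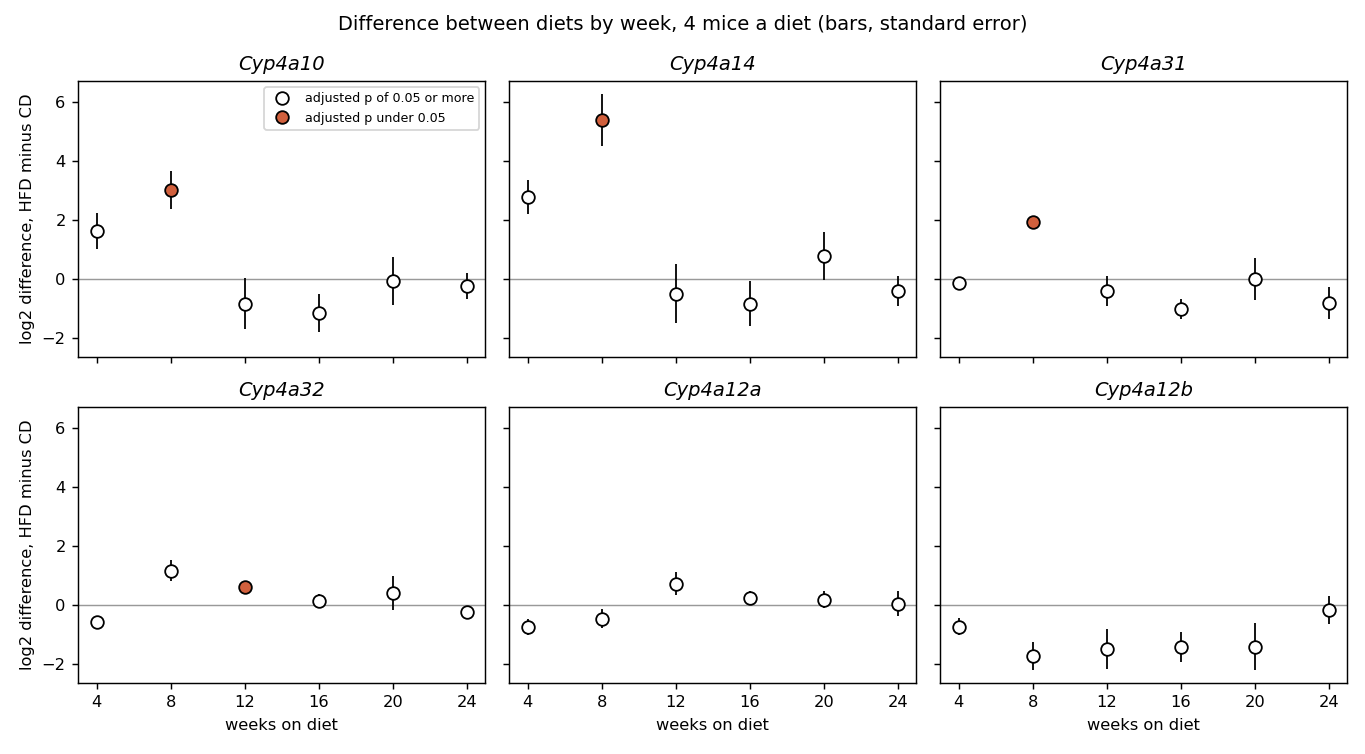
Log2 difference of FPKM + 1, HFD minus CD, against weeks on diet for each gene, with 4 mice a diet, bars of 1 SE and filled points for an adjusted p under 0.05. The called differences are those of Cyp4a10 (3.001), Cyp4a14 (5.39) and Cyp4a31 (1.92) at week 8 and of Cyp4a32 (0.61) at week 12, and Cyp4a12b lay below 0 in all 6 weeks.

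Averaged over the 6 weeks, in one limma fit of all 48 livers, 1 of 6 members was called higher and 1 lower, against 35.8% and 6.78% of 10879 genes. Cyp4a12b was lower on HFD (log2 difference -1.17, SE 0.25, adjusted p = 2.75e-04), and it was -1.26 to -1.06 without any one mouse. Cyp4a14 was higher by 1.19 (SE 0.35, adjusted p = 0.00617). Its average rested on the first 2 time points: with week 8 left out it was 0.35 (adjusted p = 0.493), and with week 4 left out 0.87 (adjusted p = 0.0671). For Cyp4a12b, leaving out any week kept the call. The averages of Cyp4a10 (0.38, SE 0.31), Cyp4a12a (-0.01, SE 0.15), Cyp4a31 (-0.09, SE 0.21) and Cyp4a32 (0.24, SE 0.14) were not called, nor were those of the 2 sums (0.34, SE 0.29, and -0.24, SE 0.15). Without week 4, Cyp4a32 was called at 0.41 (adjusted p = 0.0337). The median of all genes was itself above 0, by 0.04 to 0.11 in single weeks and 0.08 on average, and -0.04 to -0.01 after median ratio scaling. That scaling changed the share of higher genes among all called genes from 84.1% to 45% for the average, from 88.6% to 49.3% at week 12, from 82.3% to 68.5% at week 8 and from 90.8% to 63.9% at week 16. The calls of Cyp4a14 and Cyp4a12b kept their direction under it. Of stellate cell markers 6 of 6 were called higher on HFD on average and of hepatocyte markers 3 of 8 lower (4 of 6 and 4 of 8 after that scaling). Of Kupffer cell markers 3 of 6 were called higher, of endothelial markers 1 of 6 and of cholangiocyte markers 1 of 3 (2 of 6, 1 of 6 and 0 of 4 after that scaling). The shares of all genes on average were the 35.8% higher and 6.78% lower given above. The part of cell composition in these results was not tested.

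Whether the diet effect differed between weeks was tested with an F test over the 6 weekly differences. It was called for Cyp4a14 alone among the 6 (adjusted p = 0.00845), against 1.46% of all genes. Cyp4a10 and Cyp4a31 had adjusted p of 0.0914 and 0.0975, which became 0.0227 and 0.0294 without CD304. The mean difference of weeks 4, 8 and 12 minus that of weeks 16, 20 and 24 was 2.72 for Cyp4a14 (SE 0.70, adjusted p = 0.107), 1.76 for Cyp4a10 and 1.07 for Cyp4a31. limma called 0 of 6 members on this contrast, against 0.0368% of all genes called higher and 0.138% called lower. At an unadjusted p under 0.05, 3 members differed, all higher early, and the share of all genes at that threshold was not computed.

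Change over the weeks was also tested within each diet. On CD it was called for 4 of 6 members, Cyp4a14 (adjusted p = 3.86e-06), Cyp4a31 (2.62e-04), Cyp4a10 (0.00151) and Cyp4a32 (0.00639), and on HFD for Cyp4a12a (0.00747) and Cyp4a32 (0.0358). All genes were called at 55% on CD and 50.2% on HFD, so a call over the weeks was common. Weeks are also ages of the mice, and groups of different weeks were not tied to shared batches in the labels, so age, feeding time and handling cannot be told apart. The call of Cyp4a32 on HFD was lost without any one of 5 mice (HFD112, HFD113, HFD114, HFD411 and HFD418), with adjusted p of 0.0539 to 0.135.

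Ordered by group mean, Cyp4a14 was lowest in CD mice of week 8 (32.3 FPKM) and week 4 (44.3) and highest in CD mice of week 16 (1073) and week 12 (1162), with the 6 HFD groups between them at 338 to 773. Cyp4a10 was ordered in a like manner, from 98.9 and 101.6 FPKM in CD mice of weeks 8 and 4 to 705 and 793 in CD mice of weeks 12 and 16. For Cyp4a12b, the 5 lowest groups were all HFD (12.1 to 20.8 FPKM), and the highest was CD at week 8 (54.8). Neighbouring groups in these orders overlapped for every gene, except that Cyp4a31 in CD mice of week 8 (mean 1.15 FPKM) did not overlap the next group, HFD at week 4 (3.21). The lowest group of Cyp4a12a was HFD at week 4, with 28.0, 33.8, 35.6 and 46.6 FPKM.

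Mice of one group still differed widely, and these differences were used to ask which members moved together. Each value was taken as its deviation from the mean log2(FPKM + 1) of its diet and week, over 48 livers, and p-values came from 100000 permutations of mice within groups, two-sided and adjusted over the 15 pairs. Cyp4a10 and Cyp4a14 were the closest pair, with Pearson r = 0.94 and Spearman rho = 0.94 (adjusted permutation p = 5.0e-05 for both, from raw p of 1e-05, the smallest the permutations can give). Without the 2 mice farthest from the median of Cyp4a10, r was 0.93. The coding sequences of these 2 genes are 75.4% identical and share 0 of their 50-base windows. Cyp4a31 followed both, with r = 0.77 to Cyp4a10 (rho = 0.77) and 0.77 to Cyp4a14 (rho = 0.82), each with an adjusted permutation p of 5.0e-05, and 0.69 and 0.75 without the farthest 2 mice.

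Cyp4a32 was tied more loosely, with r = 0.48, 0.50 and 0.58 to Cyp4a10, Cyp4a14 and Cyp4a31 (adjusted permutation p = 0.018, 0.011 and 0.014). Its rho was 0.34, 0.37 and 0.47, with adjusted permutation p of 0.1, 0.077 and 0.031, and r without the farthest 2 mice was 0.36, 0.42 and 0.47. Cyp4a12a and Cyp4a12b correlated with each other at r = 0.53 and rho = 0.63 (adjusted permutation p = 0.0021 and 2.2e-04, r = 0.53 without the farthest 2). Against Cyp4a10, Cyp4a14 and Cyp4a31, these 2 genes had r of -0.04 to 0.17, with adjusted permutation p of 0.51 to 0.95. Cyp4a12a had r = 0.33 and rho = 0.41 with Cyp4a32 (adjusted permutation p = 0.078 and 0.031, r = 0.35 without the farthest 2), and Cyp4a12b had r = 0.23 with it (adjusted permutation p = 0.22). Near-identical genes can correlate through shared reads, and this was not tested for the 3 genes of the Cyp4a10 group or for the Cyp4a12 pair.

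**Figure D3:**
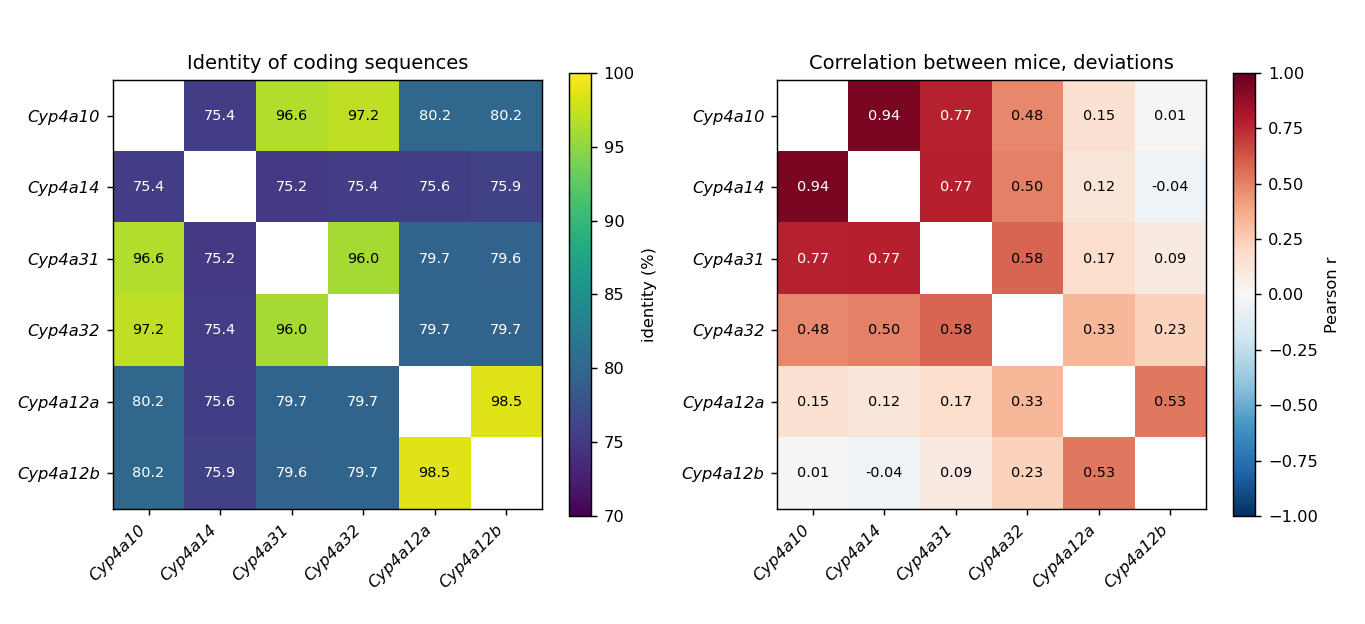
Left, percent identity of coding sequences for each pair of the 6 genes. Right, Pearson r of their deviations from the group mean of log2(FPKM + 1) over 48 livers. Cyp4a14 shared 75.4% of bases with Cyp4a10 but correlated with it at 0.94, while Cyp4a12a and Cyp4a12b shared 98.5% and correlated at 0.53.

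Among 9975 other genes with at least 1 FPKM in 24 or more livers, those whose deviations were most like each member were listed, as a description without a test. For Cyp4a14 the leading ones were Retsat, a retinol saturase (r = 0.86), and Crat, carnitine acetyltransferase (0.84). The same pair led for Cyp4a10 (r = 0.88 and 0.80). For Cyp4a31 they were Abcb4, a phospholipid exporter of bile (0.78), Agpat9, a glycerol-3-phosphate acyltransferase (0.77), and Crat (0.74), and for Cyp4a32 Slc22a5, the carnitine carrier (0.75), Rab30 (0.74) and Mmd (0.74).

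The Cyp4a12 genes had other neighbours. For Cyp4a12b, the 3 most like genes were Mup14 (r = 0.85), Mup15 (0.80) and Mup17 (0.79), all major urinary protein genes, which male mouse liver makes in bulk and which have close copies. Whether reads were shared among these copies was not tested. Mup14 had a median of 7097 FPKM on CD and 2836 on HFD, and on average over the weeks it differed by -1.53 on the log2 scale (SE 0.37). For Cyp4a12a they were Abcg2 (0.63), the melatonin receptor gene Mtnr1a (0.60) and Elovl3 (0.59), a male-biased fatty acid elongase.

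**Figure D4:**
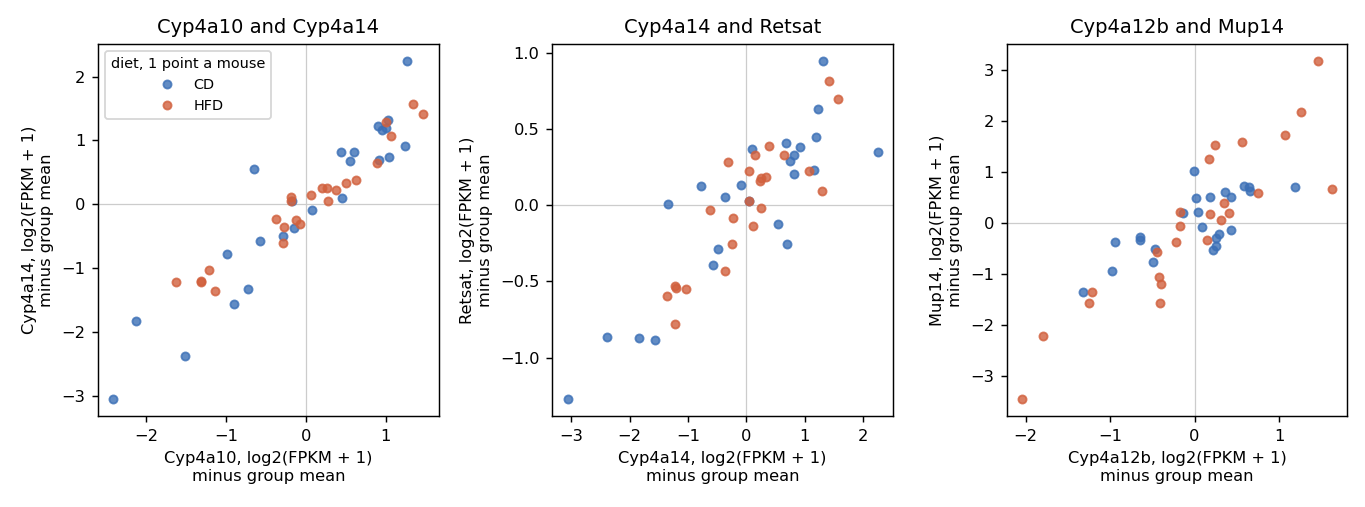
Deviation of log2(FPKM + 1) from the group mean, 1 point a mouse (24 CD in blue, 24 HFD in orange), for Cyp4a14 against Cyp4a10 (r = 0.94), Retsat against Cyp4a14 (r = 0.86) and Mup14 against Cyp4a12b (r = 0.85). Trends were not fitted by diet, and Mup14 deviations ran from -3.46 to 3.18 in HFD mice and from -1.35 to 1.01 in CD mice.

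The deviations were also set against the mean deviation of gene lists that held no Cyp4a member, 42 pairs of a member and a list, with p from the same permutations adjusted over the 42. Only genes of a list with at least 1 FPKM in 24 or more livers entered its mean. The list of PPARα and its targets correlated with Cyp4a14 (r = 0.74, rho = 0.72, adjusted permutation p = 1.0e-04 and 1.4e-04), Cyp4a10 (r = 0.72, rho = 0.68, adjusted permutation p = 1.0e-04 and 1.4e-04), Cyp4a31 (r = 0.62, rho = 0.57, adjusted permutation p = 9.1e-04 and 0.0051) and Cyp4a32 (r = 0.57, rho = 0.54, adjusted permutation p = 0.0028 and 0.006). Without the farthest 2 mice these r were 0.72, 0.68, 0.55 and 0.51. Against the same list Cyp4a12a had r = 0.32 (rho = 0.32, adjusted permutation p = 0.1 for both) and Cyp4a12b r = -0.04 (rho = 0.05, adjusted permutation p = 0.84 and 0.8).

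Cyp4a12b followed the sex-biased lists. With the male-biased list it had r = 0.75 (rho = 0.70, adjusted permutation p = 1.0e-04 and 3.1e-04, r = 0.69 without the farthest 2). With the female-biased list it had r = -0.74 (rho = -0.66, adjusted permutation p = 1.0e-04 and 3.4e-04, r = -0.67 without the farthest 2). Under the looser filter of 1 FPKM in 4 or more livers, 8 of the 18 genes of this list were kept. The mean of the list rests on no more genes than that, and they could pass through HFD livers alone. Correlations with this list are therefore not independent of the filter. Cyp4a12a had r = 0.44 with the male-biased list (rho = 0.44, adjusted permutation p = 0.03 and 0.027, r = 0.39 without the farthest 2). Cyp4a14 and Cyp4a10 lay the other way, at r = -0.41 and -0.39 with the male-biased list (rho = -0.42 and -0.39, adjusted permutation p = 0.008 to 0.027, r = -0.39 and -0.41 without the farthest 2). With the female-biased list they had r = 0.44 and 0.41 (rho = 0.42 and 0.38, adjusted permutation p = 0.0072 to 0.041, r = 0.49 and 0.48 without the farthest 2). With the gluconeogenic list of fasting genes, Cyp4a14 had r = 0.56 (rho = 0.60, adjusted permutation p = 6.7e-04 and 1.4e-04, r = 0.56 without the farthest 2). Cyp4a10, Cyp4a31 and Cyp4a32 had r of 0.41 to 0.45 with it (rho 0.46 to 0.49, adjusted permutation p = 0.0032 to 0.0074, r = 0.40 to 0.50 without the farthest 2). Cyp4a12a had r = 0.37 (rho = 0.41, adjusted permutation p = 0.031 and 0.019, r = 0.39 without the farthest 2) and Cyp4a12b r = 0.02. That list shares genes with the PPARα list, among them Fgf21, Pdk4, Cpt1a and Angptl4, and the feeding state of the mice at collection is not given in the sources used here. With the lipogenic list of fat synthesis genes, Cyp4a31 had r = -0.51 (rho = -0.51, adjusted permutation p = 0.014 and 0.0074, r = -0.36 without the farthest 2). Cyp4a32 had r = -0.45 with it (rho = -0.36, adjusted permutation p = 0.035 and 0.08, r = -0.30). In the remaining members r was -0.34 to -0.13 (adjusted permutation p = 0.058 to 0.51). Cyp4a12b had r = -0.39 with a periportal list (rho = -0.42, adjusted permutation p = 0.037 and 0.033, r = -0.38 without the farthest 2).

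The other genes of these pathways were compared between diets in the same weekly fits. At week 8, 25 of 32 genes of the PPARα list were called higher on HFD and none lower, against 6.17% and 1.33% of all genes. At an unadjusted p under 0.05, 29 were higher, and the median log2 difference of the list was 0.95, against 0.04 for all genes tested. Among them, Vnn1, a pantetheinase, rose by 3.39 (SE 0.25), Cd36, a fatty acid carrier of the cell membrane, by 3.29 (SE 0.42), and Fgf21, a fasting hormone of the liver, by 2.69 (SE 0.59). Ppara itself rose by 0.79 (SE 0.14). In the other weeks 0, 5, 3, 7 and 1 of the list's genes were called higher at weeks 4, 12, 16, 20 and 24 and none lower. Of all genes 0.0405%, 9.42%, 6.74%, 1.73% and 0.65% were called higher in these weeks, so the counts of weeks 12 and 16 were not far above that share. The list's median log2 differences were 0.33, 0.20, 0.18, 0.42 and 0.10, against 0.06 to 0.11 for all genes. At week 4, 15 of 31 were higher at an unadjusted p under 0.05. After median ratio scaling the count at week 8 was again 25 higher and none lower.

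Of the other Cyp4 genes and the steps after omega hydroxylation, 4 of 17 tested were higher at week 8 and 1 lower, against 6.17% and 1.33% of all genes. Aldh3a2, the fatty aldehyde dehydrogenase of this route, rose by 2.05 (SE 0.19), Crat by 1.65 (SE 0.35), Acot8, a peroxisomal thioesterase, by 0.69 (SE 0.10) and Abcd3, a peroxisomal fatty acid transporter, by 0.52 (SE 0.09). Cyp4f14, a hydroxylase of the CYP4F family, fell by 0.84 (SE 0.21). On average over the weeks 7 of 18 were higher and 2 lower, shares near the 35.8% higher and 6.78% lower of all genes, with Aldh3a2 at 1.095 (SE 0.12). After median ratio scaling the counts were 4 higher and none lower at week 8, without the call of Cyp4f14, and 4 higher and 6 lower on average, so the balance of this list on average turned with the scaling.

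Of the male-biased list, which holds neither Cyp4a12 gene, 11 of 17 fell on HFD on average over the weeks and none rose. Of all genes 6.78% were called lower and 35.8% higher on average. The median of the list was -0.61, against 0.08 for all genes. Hsd3b5, a male-specific steroid dehydrogenase, had a log2 difference of -2.70 (SE 0.44), Serpina1e -1.77 (SE 0.35) and Ugt2b38, a glucuronosyltransferase, -1.32 (SE 0.18). Of the female-biased list 8 of 18 were expressed enough to be tested. Of these 6 rose and 1 fell, against 35.8% higher and 6.78% lower of all genes. Cyp2b9 stood at 4.21 (SE 0.25), Cyp2b13 at 1.55 (SE 0.21) and Cyp2a4 at 1.42 (SE 0.24). A gene could pass the filter of 1 FPKM in 4 or more livers through HFD livers alone. The count of higher genes in this list is therefore not independent of the filter. The summed FPKM of the female-biased list was 4.74 to 25.9 in CD livers and 17.5 to 260 in HFD livers, and that of the male-biased list 15352 to 41716 and 9285 to 36414. At week 8, 5 of 17 male-biased genes were called lower and none higher, against 1.33% lower and 6.17% higher of all genes. At an unadjusted p under 0.05, 13 of them were lower in that week. Week 4 went the other way, with a median of 0.34, none called, and 4 of 17 higher and none lower at an unadjusted p under 0.05. On average over the weeks, median ratio scaling gave 13 of 17 male-biased genes lower and none higher, and 6 of 8 female-biased genes higher and 1 lower.

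**Figure D5:**
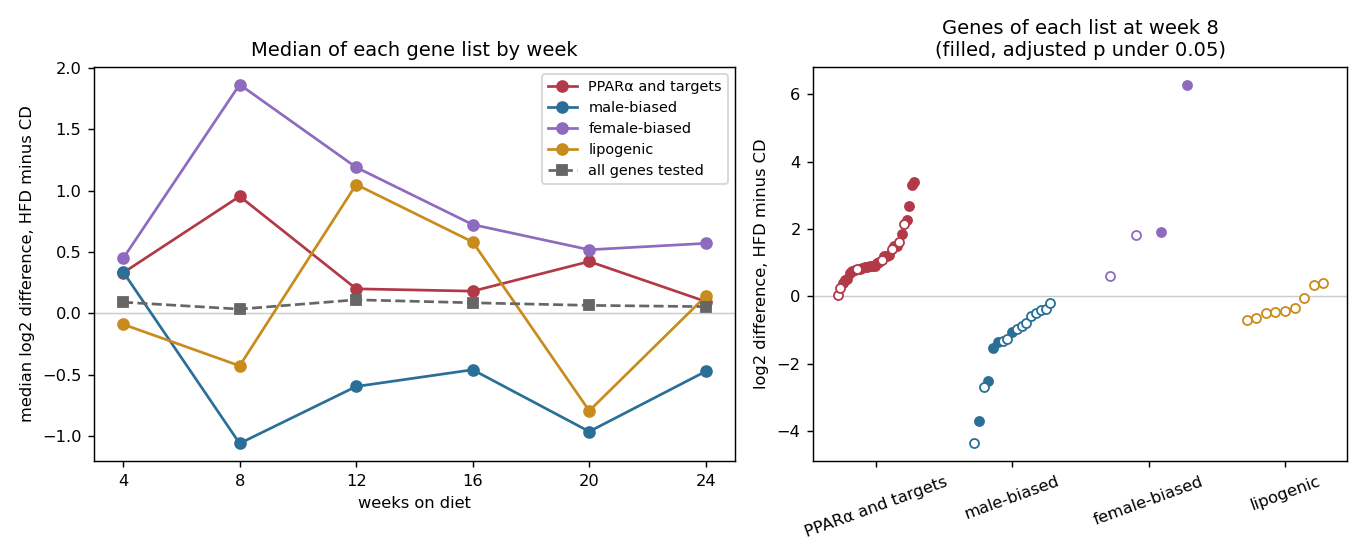
Left, median log2 difference (HFD minus CD) of 4 gene lists and of all genes tested, by week. The female-biased median rests on 2 of 18 genes at week 4, 4 at week 8 and 5 in later weeks. These genes could pass the filter through HFD livers alone. Right, log2 difference of each gene of those lists at week 8, filled where the adjusted p was under 0.05. The median of the PPARα list peaked at week 8 (0.95), and that of the male-biased list lay at -1.06 in that week.

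Signs of feeding state and time of day were read beside the weekly results. Of 9 lipogenic genes tested, none was called at week 8 (median -0.43, 1 lower at an unadjusted p under 0.05) and 1 was called higher at week 12 (median 1.05, 7 higher at an unadjusted p under 0.05). Of all genes 9.42% were called higher at week 12. Of 9 gluconeogenic genes of fasting, 3 were called higher at week 8 and none lower, against 6.17% and 1.33% of all genes. Their median was 0.83, against 0.04 for all genes, and 3 were again called higher after median ratio scaling. At week 12 none of the 9 was called (median 0.19). The overlap of this list with the PPARα list is given above. At week 12, when the CD mice other than CD304 had high Cyp4a10 and Cyp4a14, the summed lipogenic FPKM was 273, 281 and 642 in those 3 mice, 959 in CD304, and 815 to 1754 in HFD mice. The summed gluconeogenic FPKM was 2734, 3059 and 3372 in those 3 CD mice, 1813 in CD304, and 1947 to 2469 on HFD. CD304 thus differed from its group in these genes as it did in Cyp4a10, Cyp4a14 and Cyp4a31. Of 14 or 15 clock genes tested, limma called none in any week, while after median ratio scaling 1 was called lower at week 12. At an unadjusted p under 0.05, 0 differed at weeks 4 and 8, and 5 were lower at week 12. At that threshold 1 was lower at week 16, 1 higher at week 20, and 4 higher and 1 lower at week 24. The globin and erythroid markers summed to 359 to 1628 FPKM on CD and 149 to 697 on HFD at week 8. The part of feeding state and of blood content in the Cyp4a differences was not tested.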

How the data were processed

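RNA was measured in liver and islet libraries made by poly(A) selection and sequenced on the BGISEQ-500 platform. Per the labels, reads were processed with HISAT2 2.0.4, Bowtie2 2.2.5, RSEM 1.1.12 and DESeq2 on GRCm38.p5, as the submitters' processing notes name them without roles; how the table's models for Cyp4a10, Cyp4a31 and Cyp4a32 divided shared reads is not given in the sources used here. The deposited values are FPKM, given by the authors per gene and library to 2 decimals with no counts, so the read depth behind each value is unknown and no counting interval was computed. Summed FPKM per liver library was 560016 to 672369. Columns of the authors' own comparisons (log2 fold changes, p-values and q-values, with headers naming DEGseq), of averages and of cluster and module membership were not used. No 2 libraries held identical values.

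Groups came from the sample titles and the labelled weeks, with 4 mice in each of 12 liver groups. Mice of a group are separate animals. Values were tested as log2(FPKM + 1), which understates changes of low genes, with limma 3.58.1 (trended and robust variances) in R 4.3.3. The fit was made within each week keeping genes that reached 1 FPKM in 4 or more of the 8 libraries, and over 48 livers for the average, the diet effect by week and the change over weeks, keeping genes that reached 1 FPKM in 4 or more libraries. Adjusted p-values are Benjamini-Hochberg over all genes of a fit, at 0.05. The fits were tested on simulated data. Correlations used Python 3.11.15 with 100000 permutations within groups. Coding sequences came from GENCODE M21 transcripts and were aligned globally.

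The members and gene lists were chosen with earlier results of these data known. The named genes are the 6 members and, for each, the 3 other genes with the highest Pearson r of deviations. Genes of lists named in the text, and the correlations of members with lists, were chosen after their values were seen. The alternatives were a pseudocount of 0.1 FPKM, no filter on low FPKM, median ratio scaling, limma without trended and robust variances, a minimum absolute log2 fold change of 1, all 12 groups in one fit, each mouse left out and, chosen after seeing the data, each week left out of the average. Some genes that the rule or the lists hold are not reported here by name, and the counts and medians include them.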

Additional observations from a re-analysis of the deposited data

Results flagged for a closer look

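Over 72 sets of 4 values, 1 for each of the 6 genes in each of the 12 liver groups, 1 mouse stood apart from the other 3 in 5 sets by Dixon's gap test at the 95% level on log2(FPKM + 1), where about 1 in 20 sets would by chance. The sets share mice and are not independent. In the CD group of week 12, CD304 was low for Cyp4a10 (96.5 FPKM, against 759 to 1001 in the other 3) and for Cyp4a14 (87.7 FPKM, against 1182 to 1724). In the CD group of week 24, CD606 was high for Cyp4a10 (576 FPKM, against 309 to 339). In the HFD group of week 8, HFD217 was low for Cyp4a14 (490 FPKM, against 814 to 894). In the HFD group of week 20, HFD511 was high for Cyp4a31 (10.9 FPKM, against 3.92 to 4.00).

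For Cyp4a14 the difference between the diets itself differed between the weeks, with an adjusted p of 0.00845 in the F test of limma over 48 livers.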

How the results depend on the processing

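The count of members called at week 12 was 1 and became 0 with no filter on low FPKM, with median ratio scaling, with a minimum absolute log2 fold change of 1 and when the 12 groups were fitted together. Cyp4a32 at week 8, not called in the weekly fit, was called when the 12 groups were fitted together in limma (adjusted p = 0.0331). The count for change over weeks on HFD was 2 and became 1 with no filter and with median ratio scaling. The average of Cyp4a14 was 0.87 with week 4 left out and 0.35 with week 8 left out, both past the threshold no longer, and that of Cyp4a32 was 0.41 with week 4 left out and then called. With 1 mouse left out at a time, the count of members called was 0 to 1 at week 4, 2 to 4 at week 8, 0 to 3 at week 12 and 0 to 2 at week 16, 1 to 3 for the diet effect by week and 1 to 2 for change over weeks on HFD. The mice behind these changes are named beside the results, and the cause was not tested. A pseudocount of 0.1 FPKM and limma without trended and robust variances changed no call. Without subtraction of group means, r of Cyp4a12a and Cyp4a12b was 0.28 (adjusted permutation p = 0.0851) and r of Cyp4a12a and Cyp4a32 was 0.37 (adjusted permutation p = 0.0201). No paired analysis was possible because HFD and CD mice of a week were different animals and shared no replicate numbers.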
